A study of Rattus norvegicus with 28 samples.

Results

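The ID genes (inhibitor of DNA binding) encode 4 helix-loop-helix proteins, Id1, Id2, Id3 and Id4. They were found by their symbols in the table of expression values and make up 4 of its 17455 symbols. Each symbol was listed with 1 transcript, and all 4 passed the minimum mean of 1 TPM (a transcript's share of its library, corrected for length and scaled to a fixed total) that left 10275 genes for testing. ID proteins carry the dimerization domain of the basic helix-loop-helix (bHLH) factors but lack the basic region that contacts DNA. They bind E proteins, the shared partners of tissue-specific bHLH factors, and so keep those factors from E-box sites. In beta cells the best known such factor is Neurod1, which pairs with an E protein to activate the insulin genes. Bone morphogenetic proteins (BMPs), acting through their receptors and SMAD proteins, are classical inducers of ID transcription, and ID genes are known for high levels in dividing and undifferentiated cells.

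Bulk RNA-seq gave the levels of messenger RNA in INS-1, a rat insulinoma line used as a model of the beta cell. Cells were WT or carried Med14 S983A, a substitution in a scaffolding subunit of Mediator, the complex between transcription factors and RNA polymerase II. For both genotypes there were untreated cells (CON) and cells that had received 10 nM exendin-4 (Ex-4), a GLP-1 receptor agonist, or 10 µM forskolin (FSK), which activates adenylyl cyclase directly, for 1, 8 or 16 h. Each of the 14 groups had 2 libraries, 28 in all, and the comparisons ask how the early and late cAMP responses differ between the genotypes. All cells were grown in serum and moved to serum-free medium before treatment, and each genotype had a single CON group for the 3 times, so that hours of exposure and hours in that medium cannot be told apart. The S983A cells were made by CRISPR with homology-directed repair and sorting of single cells, and the study's methods name 2 knock-in lines made independently, but the labels do not tie a library to a line. The study's methods call the replicates biological, and the labels do not say whether a pair of libraries differs by culture, by line or by both.

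The libraries held 42183630 to 56755944 fragments outside the spike-in RNA, except replicate 2 of S983A at 8 h of FSK with 91794163. Behind the values of the ID genes were 75 to 1172 fragments a library for Id2, 245 to 3010 for Id1, 297 to 3289 for Id3 and 738 to 25754 for Id4. Replicates correlated with Pearson r of 0.998 to 0.999 across genes and differed by more than counting noise in every group. At CON the level of Med14 was 20.9 ± 0.883 TPM in WT and 19.9 ± 0.504 TPM in S983A (SD, n = 2 each), which does not check the genotype, since only 1 residue was changed. Of 12 beta cell markers, 11 were in the table and all 11 had means of at least 1 TPM, with summed levels of 52015 to 90536 TPM. Of 4 alpha cell markers, Gcg alone reached that mean, and the summed level of the 4 ran from 6.16 to 1345 TPM, the S983A libraries being the lower. No marker of delta cells, PP cells, fibroblasts, endothelial or immune cells reached it. TPM measures a share of the RNA in a bulk sample, so fewer cells of a type and less RNA per cell cannot be told apart.

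In rn6, the build of the files, Id1 (NM_012797) lies on the plus strand of chromosome 3 from 148215588 to 148216715, and Id3 (NM_013058) on the plus strand of chromosome 5 from 154489603 to 154491172. Id2 (NM_013060) lies on the minus strand of chromosome 6 from 44360077 to 44361908, and Id4 (NM_175582) on the minus strand of chromosome 17 from 16692557 to 16695126. The 4 genes are thus on 4 chromosomes and share no transcript. Their exons measure 904 bases in Id1, 728 in Id2, 937 in Id3 and 1621 in Id4. Because all 4 rose within 1 h of either agent, their proximal promoters are shown, as the 250 bases before the gene start in RefSeq's annotation of GRCr8, written 5′ to 3′ on the strand of the gene. The stretches are chr3:161671314-161671563 for Id1, chr6:47470996-47471245 for Id2, chr5:153656041-153656290 for Id3 and chr17:16598294-16598543 for Id4. Capitals mark matches to the CCAAT box (CCAAT, or ATTGG on the other strand) and the TATA box (TATAAA).
Id1: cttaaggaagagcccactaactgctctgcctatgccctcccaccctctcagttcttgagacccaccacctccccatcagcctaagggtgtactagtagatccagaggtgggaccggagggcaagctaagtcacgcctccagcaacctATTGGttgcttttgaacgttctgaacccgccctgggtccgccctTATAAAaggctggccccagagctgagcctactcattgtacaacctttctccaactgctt
Id2: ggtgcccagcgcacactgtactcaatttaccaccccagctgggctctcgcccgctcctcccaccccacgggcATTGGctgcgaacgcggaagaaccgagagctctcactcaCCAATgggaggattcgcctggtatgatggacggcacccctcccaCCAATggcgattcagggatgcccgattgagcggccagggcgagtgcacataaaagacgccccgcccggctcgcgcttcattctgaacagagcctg
Id3: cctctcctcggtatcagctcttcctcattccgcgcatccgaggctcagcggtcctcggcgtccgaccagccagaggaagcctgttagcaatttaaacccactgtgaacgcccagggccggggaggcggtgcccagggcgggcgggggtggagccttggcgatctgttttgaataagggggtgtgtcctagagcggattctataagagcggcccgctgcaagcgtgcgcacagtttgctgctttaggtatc
Id4: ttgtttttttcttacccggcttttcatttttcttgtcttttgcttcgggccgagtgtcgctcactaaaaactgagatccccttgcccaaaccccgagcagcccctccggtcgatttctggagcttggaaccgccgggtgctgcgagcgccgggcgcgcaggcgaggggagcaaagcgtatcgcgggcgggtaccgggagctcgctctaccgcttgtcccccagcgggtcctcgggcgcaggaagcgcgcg

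The promoters differ in these letters. Id1 has 1 CCAAT box 103 to 99 bases before the start, on the minus strand, and 1 TATA box 59 to 54 bases before it. Id2 has 3 CCAAT boxes, which begin 178, 139 and 95 bases before the start, and Id3 and Id4 have neither motif. Among the 27457 promoters of the table, each taken from 250 bases before to 50 after the start and searched on both strands, 37.7% held CCAAT and 14.3% held TATAAA. The cAMP response element TGACGTCA, to which CREB binds, was in 1.91% of all promoters and its shorter form TGACG, which also lies within it, in 22%, and neither was in these windows of the 4 genes. That says only that these letters are not in the windows. The E-box CANNTG was in 71.6% of all promoters and occurred once in Id1, 9 to 4 bases before the start, and once in Id2, 215 to 210 bases before it. Of 2 elements that SMAD proteins are known to bind, GGCGCC was in 11.8% of all promoters and once in Id4, 39 to 44 bases after the start, and GTCTAGAC was in 0.215% and in none of the 4. The EGR element GCGGGGGCG was in 2.78% of all promoters and in none of the 4.

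In untreated cells the genotypes differed in 3 of the 4 ID genes. Id2 and Id4 were lower in S983A, Id3 was higher, and for Id1 no difference was detected. Id4, known from neural stem cells and spermatogonia, had 42.2 and 47.9 TPM in the WT CON libraries and 17.2 and 16.4 TPM in the S983A CON libraries. Id2, which also binds the retinoblastoma protein, had 15.5 and 16.4 TPM in WT CON and 3.72 and 5.46 TPM in S983A CON. For both genes every WT library was above every S983A library. Id3 had 19.8 and 20.1 TPM in WT CON and 33.5 and 31.4 TPM in S983A CON, so that it was the S983A libraries that were higher. Id1 had 21.3 and 23.3 TPM in WT CON and 21.7 and 26.6 TPM in S983A CON, and its groups overlapped.

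Differences were tested with limma on log2(TPM + 1), and a gene was called where the Benjamini-Hochberg adjusted p over all tested genes was under 0.05 and the fold change above 1.5. Every adjusted p given here is from that limma fit or, where named, from an alternative of it. On that scale, which understates the change of low genes, S983A CON minus WT CON was −1.62 for Id2 (SE 0.14, adjusted p 2.67e-10), −1.37 for Id4 (SE 0.06, adjusted p 5.14e-16), 0.68 for Id3 (SE 0.09, adjusted p 3.9e-07) and 0.11 for Id1 (SE 0.10, adjusted p 0.341). Of all tested genes, 19.4% were called in this comparison, against 3 of the 4 ID genes. In ratios of mean TPM, Id2 was 3.47-fold and Id4 2.68-fold lower in S983A, and Id3 was 1.63-fold higher. The order of the 4 genes thereby differed between the lines. In WT CON the mean levels ran from Id4 with 45.0 ± 3.98 TPM (SD, n = 2) through Id1 with 22.3 ± 1.38 and Id3 with 19.9 ± 0.215 to Id2 with 15.9 ± 0.608. In S983A CON they ran from Id3 with 32.5 ± 1.5 TPM (SD, n = 2) through Id1 with 24.2 ± 3.46 and Id4 with 16.8 ± 0.520 to Id2 with 4.59 ± 1.22.

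The chromosome around a gene can differ between cell lines, so the 50 nearest tested genes, 25 on each side in the order of the files, were set beside each ID gene. Around Id2, the median log2 difference of the neighbours was −0.06, 3 of the 50 were called, all higher in S983A, and none differed by as much as Id2. Around Id4 the median was −0.26, with 17 neighbours called lower and 1 called higher, and 3 of the 50 differed by more than Id4 in size. Around Id3 the median was 0.28, with 15 called higher and 6 called lower, and 16 differed by more than Id3 in size. Around Id1 the median was −0.08, with 4 called higher and 8 called lower, and 35 differed by more than Id1 in size. Called neighbours made up 24% around Id1, 6% around Id2, 42% around Id3 and 36% around Id4, against 19.4% of all tested genes. The signs of Id3 and Id4 were thus the signs of most called neighbours, and the part of the neighbourhood in these differences was not tested.

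In WT cells, Ex-4 raised all 4 ID genes at 1 h, and by 16 h Id1, Id2 and Id3 were below CON while Id4 was back near it. At 1 h Id4 reached 268 and 281 TPM, Id1 47.1 and 54.4 TPM, Id3 45.3 and 49.7 TPM and Id2 27.7 and 30.5 TPM. Every library was above both CON libraries. The log2 change from CON was 2.58 for Id4 (SE 0.06, adjusted p 4.26e-21), 1.21 for Id3 (SE 0.09, adjusted p 9.88e-11), 1.15 for Id1 (SE 0.10, adjusted p 8.99e-10) and 0.83 for Id2 (SE 0.14, adjusted p 8.95e-05). In ratios of mean TPM these were increases of 6.09-fold, 2.38-fold, 2.27-fold and 1.83-fold. Of all tested genes, 2.87% were called at 1 h and 1.75% were called higher.

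At 8 h of Ex-4 in WT the family had separated. Id4 remained high with 159 and 152 TPM, a log2 change of 1.77 (SE 0.06, adjusted p 2.5e-17). Id2 fell to 6.48 and 5.15 TPM, a log2 change of −1.32 (SE 0.14, adjusted p 2.38e-08). Id1, with 25.05 and 24.7 TPM, and Id3, with 21.8 and 20.3 TPM, were within 0.15 and 0.07 of CON on the log2 scale and were not called. The share of all tested genes called at 8 h was 9.60%.

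At 16 h of Ex-4 in WT, Id1 fell to 8.75 and 9.80 TPM, Id2 to 5.49 and 5.30 TPM and Id3 to 10.3 and 9.82 TPM. These were the lowest levels of Id1 and Id3 in any group. The log2 changes from CON were −1.18 for Id1 (SE 0.10, adjusted p 1.16e-10), −1.41 for Id2 (SE 0.14, adjusted p 5.85e-09) and −0.92 for Id3 (SE 0.09, adjusted p 3.04e-09), against 8.28% of all tested genes called lower and 11.8% called in either direction. The median log2 change of all tested genes in this comparison was −0.16 in TPM and 0.15 after scaling on the spike-in RNA. Id4 had 61.0 and 56.3 TPM, above both CON libraries, with a log2 change of 0.38 (SE 0.06, adjusted p 1.09e-05) that stayed under the 1.5-fold minimum. With spike-in scaling it was 0.70 (adjusted p 2.64e-11) and was called.

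**Figure D1:**
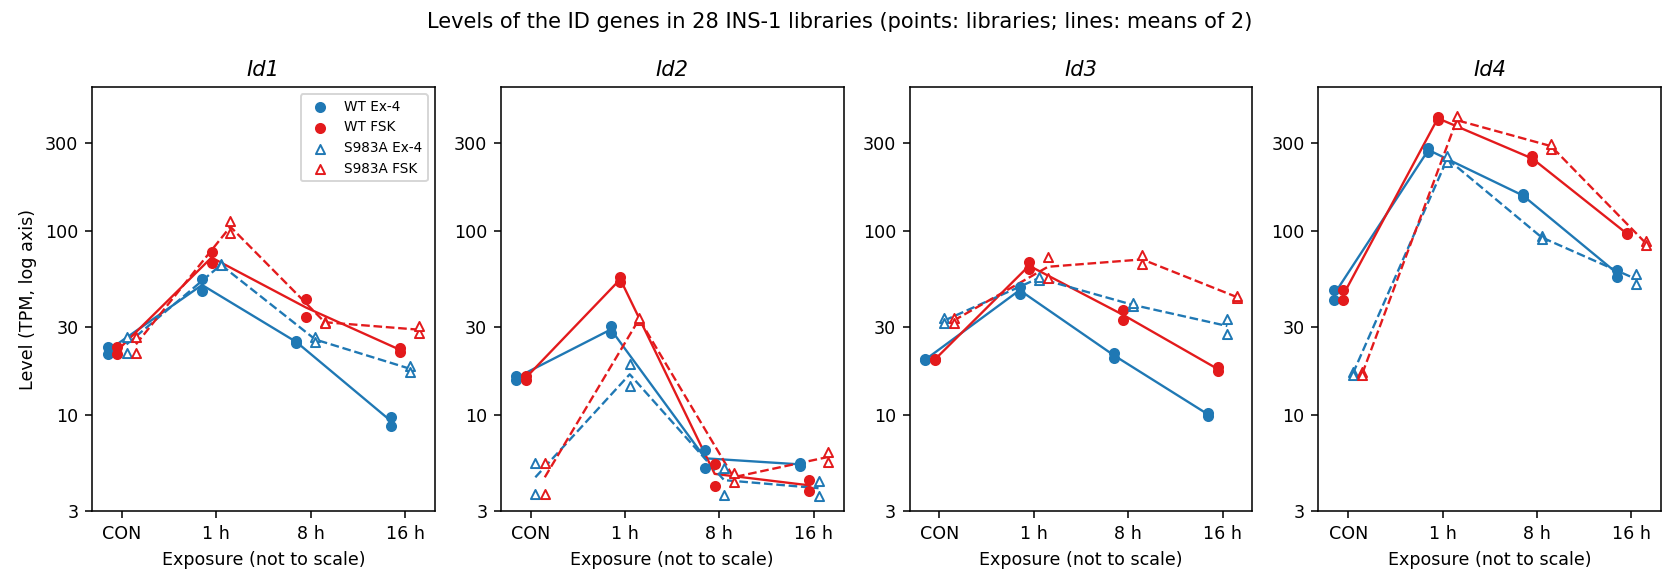
Level of each ID gene in TPM on a log axis at CON and after 1, 8 and 16 h, with 1 point a library, filled circles for WT, open triangles for S983A, blue for Ex-4 and red for FSK, and lines through the means of 2 libraries. All 4 genes peak at 1 h in WT, Id2 lies under its WT CON level of 15.9 TPM in every 8 and 16 h library, and Id4 starts at 45.0 TPM in WT and 16.8 TPM in S983A.

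FSK gave the same early rise in WT, to higher levels. At 1 h Id4 had 416 and 399 TPM, Id1 76.4 and 66.5 TPM, Id3 67.5 and 61.6 TPM and Id2 52.8 and 56.2 TPM. All 4 were called higher, against 2.53% of all tested genes called higher and 7.47% in either direction. The log2 changes were 3.15 for Id4 (SE 0.06, adjusted p 2.21e-23), 1.71 for Id2 (SE 0.14, adjusted p 3e-10), 1.64 for Id3 (SE 0.09, adjusted p 8.1e-14) and 1.63 for Id1 (SE 0.10, adjusted p 3.22e-13).

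At 8 h of FSK in WT, 3 ID genes were still raised and Id2 had fallen, in a comparison in which 43.6% of all tested genes were called, most of them lower. Id4 had 254 and 239 TPM, a log2 change of 2.43 (SE 0.06, adjusted p 1.82e-21). Id3 had 37.0 and 32.7 TPM and Id1 42.4 and 34.2 TPM, log2 changes of 0.77 (SE 0.09, adjusted p 1.97e-08) and 0.75 (SE 0.10, adjusted p 9.76e-08). Id2 had 5.44 and 4.14 TPM, below both CON libraries, a log2 change of −1.56 (SE 0.14, adjusted p 2.25e-10). At 16 h Id4 was still above CON with 97.2 and 96.0 TPM, a log2 change of 1.09 (SE 0.06, adjusted p 2.78e-14). Id2 was still below it with 3.86 and 4.44 TPM, a log2 change of −1.72 (SE 0.14, adjusted p 4.41e-11). Id1, with 22.98 and 22.1 TPM, overlapped CON, and Id3, with 17.3 and 18.2 TPM, was just under both CON libraries, log2 changes of 0.01 and −0.16 that were not called. At 16 h, 34.5% of all tested genes were called.

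In S983A cells all 4 ID genes again rose at 1 h of Ex-4, against 2.03% of all tested genes called higher and 3.04% in either direction. Id4 had 237 and 253 TPM, a log2 change of 3.79 (SE 0.06, adjusted p 1.21e-24) and a 14.6-fold ratio of means. Id2 had 14.3 and 18.96 TPM, a log2 change of 1.66 (SE 0.14, adjusted p 1.5e-09), and these libraries lay on both sides of the WT CON libraries. Id1 had 65.6 and 64.8 TPM, a log2 change of 1.40 (SE 0.10, adjusted p 1.6e-11). Id3, which started higher in this line, had 54.2 and 56.2 TPM, a log2 change of 0.75 (SE 0.09, adjusted p 5.8e-07).

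At the later times of Ex-4 only Id4 was called in S983A. It had 93.7 and 90.2 TPM at 8 h and 58.1 and 51.1 TPM at 16 h, log2 changes of 2.39 (SE 0.06, adjusted p 8.88e-20) and 1.64 (SE 0.06, adjusted p 4.13e-17). Of all tested genes, 6.30% were called at 8 h and 11.9% at 16 h, and the shares called higher were 3.21% and 4.73%. Id2 had 5.18 and 3.68 TPM at 8 h and 4.399 and 3.61 TPM at 16 h, within the range of its CON libraries or just under it. Id1 had 26.6 and 24.8 TPM at 8 h and 18.5 and 17.2 TPM at 16 h, the latter under both CON libraries, with a log2 change of −0.41 (SE 0.10, adjusted p 6.29e-04) that did not reach 1.5-fold. Id3 had 38.8 and 40.3 TPM at 8 h and 33.2 and 27.6 TPM at 16 h, with log2 changes of 0.28 and −0.10 that were not called.

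FSK in S983A cells gave the largest rise of Id4 in the data, to 379 and 417 TPM at 1 h from 17.2 and 16.4 TPM, a log2 change of 4.49 (SE 0.06, adjusted p 1.3e-26) and a 23.7-fold ratio of means. Id1 had 113 and 96.8 TPM, its highest level in any group, and a log2 change of 2.08 (SE 0.10, adjusted p 1.86e-15). Id2 had 32.7 and 33.6 TPM, a log2 change of 2.63 (SE 0.14, adjusted p 5.13e-14). Id3 had 71.9 and 55.5 TPM, a log2 change of 0.94 (SE 0.09, adjusted p 2.92e-09), and its replicates differed more than those of the other members. At this time 3.19% of all tested genes were called higher and 10.4% in either direction.

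At 8 h of FSK in S983A, Id4 had 278 and 297 TPM and Id3 74.1 and 65.6 TPM. These were log2 changes of 4.02 (SE 0.06, adjusted p 1.2e-25) and 1.08 (SE 0.09, adjusted p 3.67e-11). Id1 had 32.0 and 31.7 TPM, above both CON libraries, with a log2 change of 0.39 (SE 0.10, adjusted p 5.82e-04) that stayed under 1.5-fold. Against the median of all tested genes, which was −0.28 in this comparison, the change of Id1 was 0.73 after centring each library on its median, and it was then called. Id2 had 4.84 and 4.35 TPM, between its CON libraries. At 16 h Id4 had 88.2 and 83.4 TPM, a log2 change of 2.29 (SE 0.06, adjusted p 7.56e-21), and was the single member called. Id3 had 43.3 and 44.0 TPM, Id1 27.8 and 30.3 TPM and Id2 5.56 and 6.27 TPM, all above both libraries of S983A CON, with log2 changes of 0.42, 0.26 and 0.32 under the 1.5-fold minimum. With spike-in scaling the change of Id3 was 0.66 (adjusted p 2.55e-09) and was called. The shares of all tested genes called were 46.1% at 8 h and 33.3% at 16 h, and those called higher were 11.6% and 12.2%.

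Over the 12 treatments, Id4 was called higher in 11, Id1 in 5 and lower in 1, Id3 higher in 6 and lower in 1, and Id2 higher in 4 and lower in 4. All 16 comparisons at 1 h were called higher, and all 6 calls of a lower level were in WT at 8 or 16 h. Of these 6 calls, 4 were of Id2. The mean of Id2 in S983A CON, 4.59 TPM, was already within the 4.15 to 5.82 TPM of its WT groups at those hours. Of all tested genes, 68.5% were called in at least 1 of the 12 treatments. The share called in a single treatment ran from 2.87% at 1 h of Ex-4 in WT to 46.1% at 8 h of FSK in S983A. The shares called higher at 1 h were 1.75% to 3.19%. Those called lower in WT at 8 and 16 h ran from 5.99% to 34.8%.

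**Figure D2:**
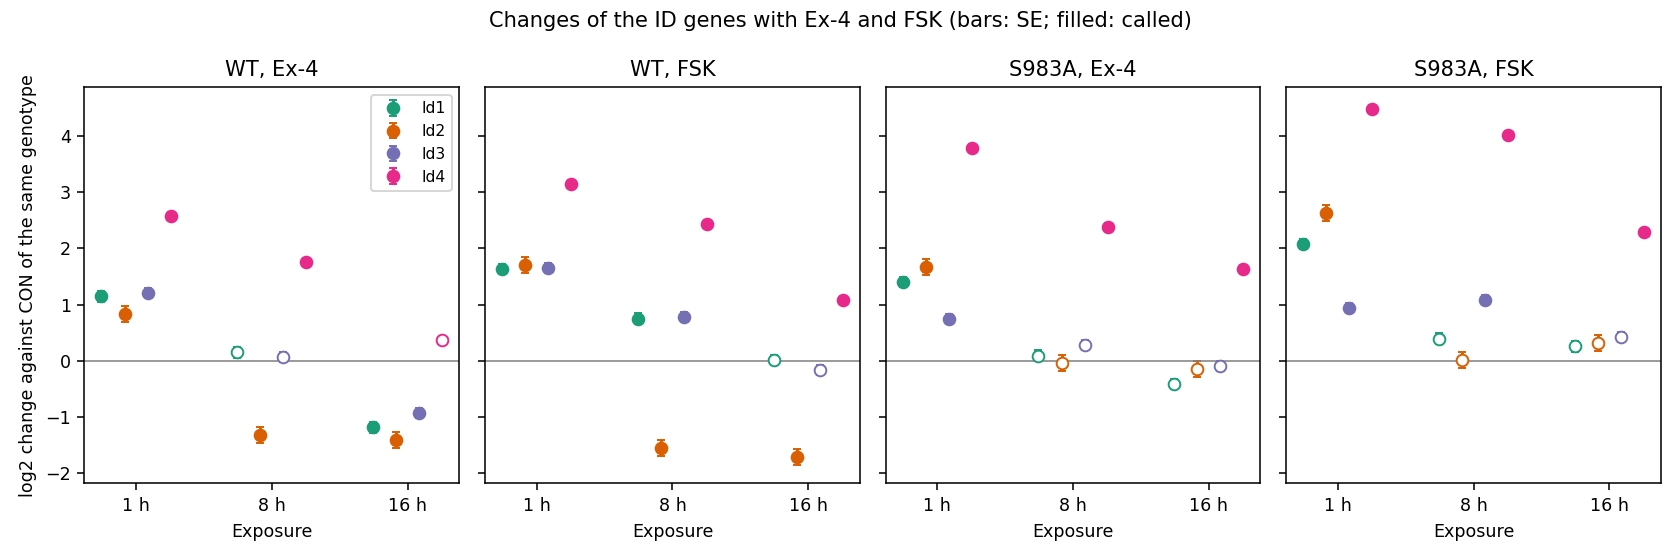
Log2 change of each ID gene from CON of the same genotype, with SE, after 1, 8 and 16 h of Ex-4 or FSK in WT and S983A; filled points were called and open points were not. All 16 points at 1 h are filled and above 0, with Id4 highest in each panel, and the filled points below 0 are all in the WT panels.

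Whether a response differed between the genotypes was tested as the log2 change in S983A minus that in WT. For Id2 and Id4 this difference was above 0 and called in all 6 combinations of agent and time, for Id1 in 1 and for Id3 in 2, of opposite sign. For Id4 the differences ran from 0.62 (SE 0.09, adjusted p 1.63e-05) at 8 h of Ex-4 to 1.59 (SE 0.09, adjusted p 2.23e-13) at 8 h of FSK. The treated levels themselves were closer than the untreated ones. At 1 h of FSK the WT libraries, at 416 and 399 TPM, overlapped the S983A libraries, at 379 and 417 TPM, and at 16 h of Ex-4 they overlapped as well, while the CON means differed 2.68-fold. At 8 h the order depended on the agent, since Id4 was lower in S983A than in WT with Ex-4 and higher with FSK, with no overlap in either case. The smallest difference, at 8 h of Ex-4, was under the 1.5-fold minimum with spike-in scaling, at 0.49 (adjusted p 0.016), with median centring, at 0.53, and without replicate 2 of WT CON, at 0.53.

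For Id2 the differences ran from 0.83 (SE 0.20, adjusted p 0.0284) at 1 h of Ex-4 to 2.04 (SE 0.20, adjusted p 5.36e-09) at 16 h of FSK. Id2 was lower in S983A than in WT at CON, at 1 h of either agent and at 16 h of Ex-4, with no overlap. At 8 h of FSK and of Ex-4 the libraries of the genotypes overlapped. At 16 h of FSK the S983A libraries, at 5.56 and 6.27 TPM, were above the WT libraries, at 3.86 and 4.44 TPM. The difference at 1 h of Ex-4 was not called when any of 6 of its 8 libraries was left out, with values from 0.61 to 1.06 over all 8 and adjusted p of 0.0531 to 0.205 in those 6. These were both replicates of WT CON, both of WT at 1 h of Ex-4, replicate 1 of S983A CON and replicate 2 of S983A at 1 h of Ex-4.

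For Id3 the response to 1 h of FSK was smaller in S983A, by −0.71 (SE 0.13, adjusted p 5.93e-04), and the response to 16 h of Ex-4 was higher, by 0.83 (SE 0.13, adjusted p 1.37e-05). The first was −0.52 without replicate 2 of S983A at 1 h of FSK, which was under the 1.5-fold minimum. At 16 h of FSK the difference was 0.58 (SE 0.13, adjusted p 4.4e-04), just under the minimum, and it passed it without any of 4 libraries, with values of 0.59 to 0.62. For Id1 the response to 16 h of Ex-4 differed by 0.77 (SE 0.14, adjusted p 7.03e-05), from levels of 8.75 and 9.80 TPM in WT and 18.5 and 17.2 TPM in S983A. At 16 h of Ex-4 all 4 members were thus called, against 7.24% of all tested genes, or 5.43% with a value above 0. With spike-in scaling the values at this time were 0.35 for Id1, 0.41 for Id3, 0.83 for Id4 and 0.87 for Id2, and only those of Id2 and Id4 were called. At 1 h of Ex-4 2 members were called, against 0.672% of all tested genes (0.341% above 0), and at 8 h 2, against 2.77% (1.98% above 0). With FSK 3 were called at 1 h, against 1.64%, 2 at 8 h, against 13.9% (7.65% above 0), and 2 at 16 h, against 17% (10.6% above 0).

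**Figure D3:**
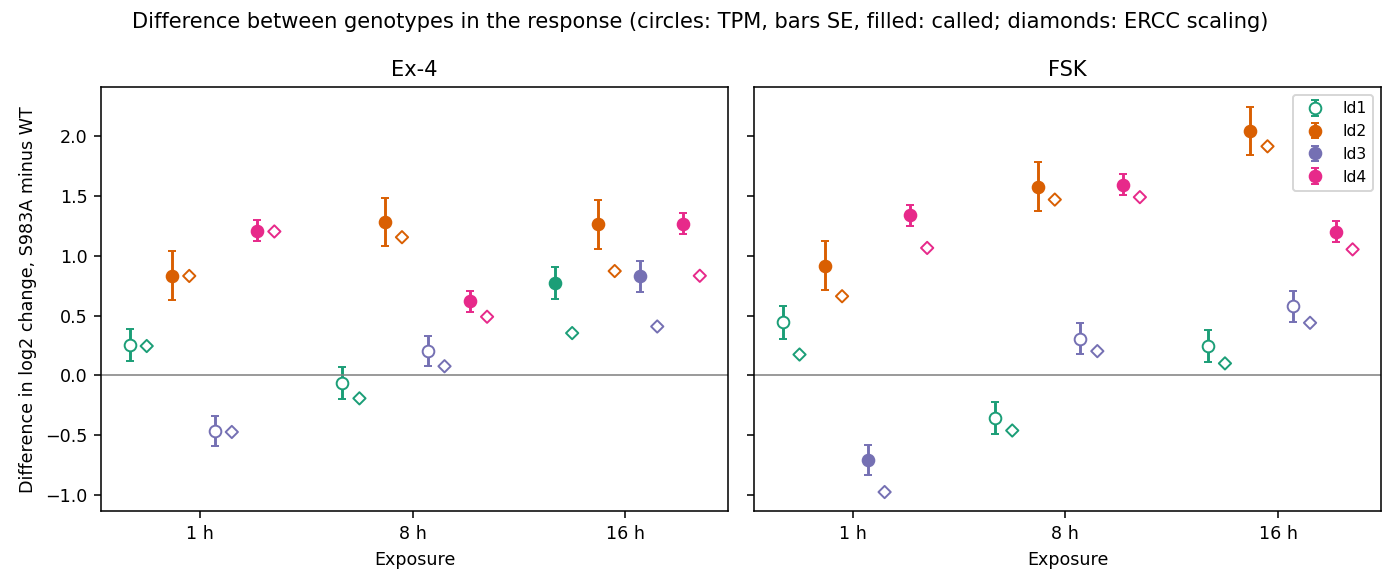
Difference between genotypes in the log2 change from CON, S983A minus WT, by agent and time, as circles with SE for TPM (filled where called) and as diamonds after scaling on the spike-in RNA. Id2 and Id4 lie above 0 in all 6 columns on both scales, Id3 lies below 0 at 1 h and above 0 at 8 and 16 h, and the circles of Id1 and Id3 at 16 h of Ex-4, 0.77 and 0.83, move to 0.35 and 0.41.

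Ex-4 and FSK were compared at the same hour and genotype. Of 24 such differences 14 were called, all with the lower level after Ex-4, and 22 of the 24 were below 0. For Id4 Ex-4 gave the lower level in every library of every pair, with log2 differences from −0.57 (SE 0.06, adjusted p 1.85e-07), under the minimum, at 1 h in WT to −1.63 (SE 0.06, adjusted p 8.07e-18) at 8 h in S983A. For Id1 the largest was −1.20 (SE 0.10, adjusted p 4.85e-11) at 16 h in WT, and for Id3 −0.80 (SE 0.09, adjusted p 1.21e-08) at 8 h in S983A. Id2 was called lower after Ex-4 at 1 h, by −0.88 (SE 0.14, adjusted p 6.37e-05) in WT and −0.97 (SE 0.14, adjusted p 9.72e-06) in S983A, and at no later time. In WT 1 member was called at 1 h, against 1.79% of all tested genes (1.14% lower after Ex-4), 3 at 8 h, against 28.1% (4.77% lower), and 3 at 16 h, against 18.7% (7.29% lower). In S983A 3 were called at 1 h, against 3.03% (1.58% lower), 2 at 8 h, against 36.5% (6.72% lower), and 2 at 16 h, against 16.3% (5.76% lower). With spike-in scaling, 5 of the 14 calls were under the minimum (Id1, Id3 and Id4 at 8 h in WT, Id1 and Id4 at 1 h in S983A) and 3 more differences passed it.

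Over time the levels declined. Of 32 changes from 1 to 8 h and from 8 to 16 h, 22 were called, all lower. From 1 to 8 h Id2 fell most, by −3.27 (SE 0.14, adjusted p 9.51e-17) with FSK in WT, −2.61 (SE 0.14, adjusted p 7.66e-15) with FSK in S983A, −2.15 (SE 0.14, adjusted p 4.38e-12) with Ex-4 in WT and −1.70 (SE 0.14, adjusted p 4.3e-10) with Ex-4 in S983A. From 8 to 16 h no change of Id2 was called, and its levels stayed between 3.61 and 6.48 TPM in all 16 libraries of those hours. Id4 fell at both steps, except that its change from 1 to 8 h of FSK in S983A, −0.47 (SE 0.06, adjusted p 1.82e-07), was under the minimum. The same step in WT, −0.72, was also under it with median centring (−0.47), TMM in edgeR (−0.53) and DESeq2 with its own size factors (−0.51). The largest fall of Id4 was −1.73 (SE 0.06, adjusted p 6.03e-18), from 8 to 16 h of FSK in S983A. Id3 with FSK in S983A was the only case in which the libraries of 8 h, at 74.1 and 65.6 TPM, overlapped those of 1 h, and it fell by −0.66 (SE 0.09, adjusted p 3.56e-07) from 8 to 16 h. From 1 to 8 h all 4 members were called in WT with either agent, against 8% of all tested genes for Ex-4 (5.27% lower) and 38.0% for FSK (28.3% lower), and in S983A 3 with Ex-4, against 6.07% (3.24% lower), and 2 with FSK, against 42.7% (28.6% lower). From 8 to 16 h 3 were called in WT with either agent, against 5.58% for Ex-4 (3.49% lower) and 17.6% for FSK (3.62% lower), and in S983A 1 with Ex-4, against 3.96% (2.72% lower), and 2 with FSK, against 27.9% (6.40% lower). With spike-in scaling the falls of Id1 and Id3 from 8 to 16 h of FSK in WT and of Id3 in S983A were under the minimum, while Id2 was called higher by 0.60 at that step in S983A and Id1 lower by −0.62 at the same step of Ex-4.

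Ordered by level over the 14 groups, the 4 genes had different tops and floors. The mean of Id4 ran from 16.8 TPM in S983A CON to 407 TPM in WT at 1 h of FSK, a 24.2-fold range, and that of Id2 from 4.01 TPM in S983A at 16 h of Ex-4 to 54.5 TPM in WT at 1 h of FSK, a 13.6-fold range. Id1 ran from 9.28 TPM in WT at 16 h of Ex-4 to 105 TPM in S983A at 1 h of FSK, an 11.3-fold range. Id3 ran from 10.0 TPM in WT at 16 h of Ex-4 to 69.8 TPM in S983A at 8 h of FSK, a 6.96-fold range, the narrowest of the 4. Neighbouring groups in these orders often could not be separated. Of 13 neighbouring pairs the libraries overlapped in 4 for Id1, 9 for Id2, 5 for Id3 and 4 for Id4. The 9 lowest groups of Id2, from 5.91 down to 4.01 TPM, formed an unbroken run of overlapping pairs, and the 3 highest groups of Id3, from 69.8 to 63.7 TPM, overlapped as well.

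Since the 4 proteins share partners, their levels were also added. At CON the sum was 103 ± 6.18 TPM in WT and 78.04 ± 2.67 TPM in S983A (SD, n = 2 each), with no overlap. At 1 h it was 402 ± 19.4 TPM in WT and 382 ± 15.7 TPM in S983A with Ex-4, and 598 ± 21.1 and 600 ± 4.25 TPM with FSK (each SD, n = 2), so that the genotypes overlapped at this hour with either agent. At 16 h of Ex-4 the sum was 83.4 ± 3.04 TPM (SD, n = 2) in WT, under both WT CON libraries, and 107 ± 10.4 TPM (SD, n = 2) in S983A, over both S983A CON libraries. These sums are in TPM and were not scaled on the spike-in RNA. That scaling would multiply the WT CON libraries by 0.936 and 0.862 and those of WT at 16 h of Ex-4 by 1.13 and 1.14. The lower sum in WT at 16 h of Ex-4 is therefore shown for TPM alone. Id4 gave 43.6% of the sum in WT CON, 21.5% in S983A CON and from 51.1% to 76.0% in the treated groups. The share of Id2 was 15.4% in WT CON and at most 9.13% in every other group.

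**Figure D4:**
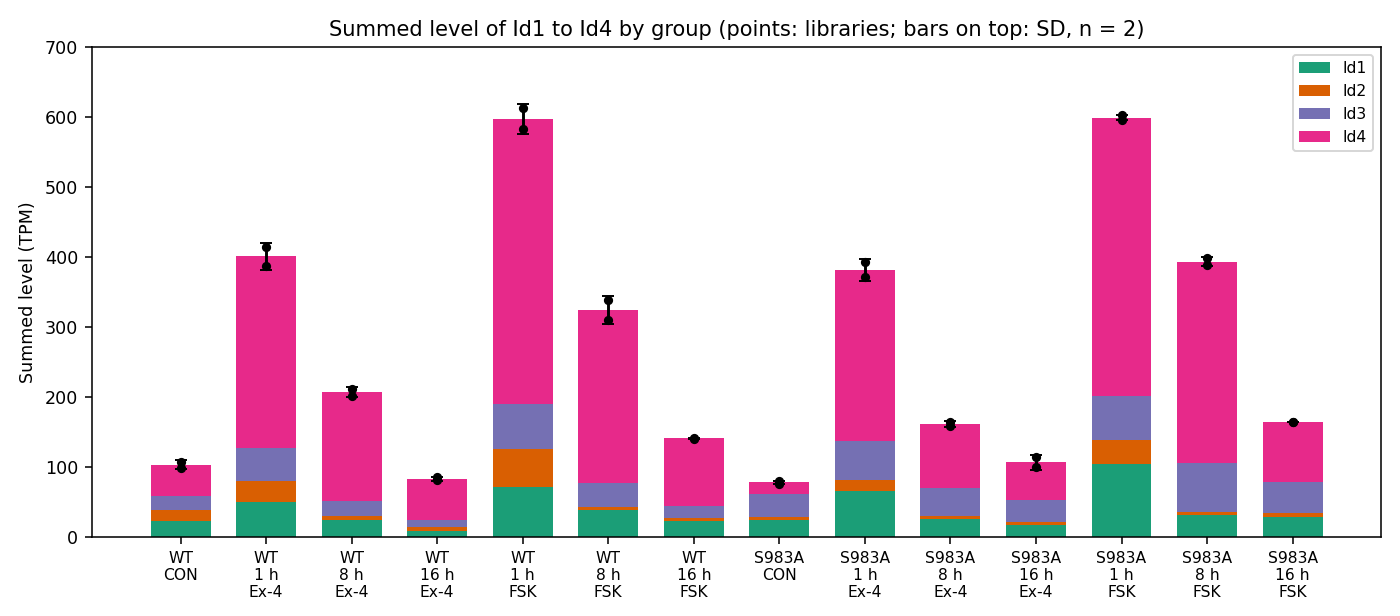
Summed level of the 4 ID genes in TPM by group, stacked by gene, with the libraries as points and the SD of the sum (n = 2) as bars. The sum rises from 103 to 598 TPM in WT and from 78.04 to 600 TPM in S983A at 1 h of FSK, most of it Id4.

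The members resembled each other to different degrees. Over the 14 group means of log2(TPM + 1), centred within each genotype, Pearson r was 0.869 for Id1 and Id3, 0.818 for Id1 and Id2, 0.805 for Id3 and Id4, 0.794 for Id1 and Id4, 0.690 for Id2 and Id3 and 0.559 for Id2 and Id4. These values describe 14 points that share libraries and CON groups. Among the 8833 genes that averaged 5 TPM or more, the 5 patterns most like that of Id4 were those of Sik1 (0.973), a kinase that restrains CREB coactivators, Hbegf (0.972), a growth factor of the EGF family, Crem (0.968), which encodes cAMP-dependent activators and repressors, LOC689986 (0.960) and Irs2 (0.952), an adaptor of the insulin receptor. For Id2 they were Cxcl16 (0.962), a chemokine, Srsf5 (0.954), a splicing factor, Btg2 (0.939), an antiproliferative early gene, Bcl2l11 (0.934), a proapoptotic member of the BCL2 family, and Fhdc1 (0.932). For Id1 they were Fam220a (0.953), Srrd (0.948), Znrd1 (0.933), a subunit of RNA polymerase I, Nr4a3 (0.929), an orphan nuclear receptor, and Per1 (0.928), a clock gene. For Id3 they were Zfp868 (0.923), Prdm2 (0.917), Bach1 (0.906), Orc1 (0.898) and Usp42 (0.886), and r of Bach1 and Usp42 was 0.292 and 0.371 without centring, as was that of Srrd to Id1 at 0.347. No member was among the 5 of another, the nearest being Id1 as number 8 for Id3.

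Of the dimer partners of ID proteins, the E proteins Tcf3 and Tcf12 were tested, and Tcf4 was listed at 0.01 TPM at most, which may be a low level or a failed estimate. Tcf3, at 68.8 TPM in WT CON, fell with FSK at 8 h by −0.99 (SE 0.06, adjusted p 1.33e-14) in WT and −1.11 in S983A, and at 16 h by −0.82 and −0.61. Tcf12, at 26.6 TPM in WT CON, was called only in WT at 8 h of FSK, at −0.66. Neither was called with Ex-4, at 1 h or between the genotypes at CON. At 8 h of FSK, 34.8% of all tested genes were called lower in WT and 34.5% in S983A. At 16 h of FSK these shares were 24.1% and 21.1%. The median log2 change of all tested genes in WT at 8 h of FSK was −0.34, and the median of the 2 E proteins was −0.82. After median centring, 1 of the 2 was called in any treatment.

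Of 35 tissue-specific bHLH factors, 33 were in the table used here, 11 were tested and all 11 were called in at least 1 treatment, in both directions, as were 68.5% of all tested genes. At 1 h of Ex-4 in WT 4 were higher and 1 lower, against 1.75% and 1.12% of all tested genes. Their median log2 change was 0.37, against −0.06 over all tested genes. Neurod1, at 224 TPM in WT CON, fell with FSK to 61.8 and 56.8 TPM at 8 and 16 h in WT, by −1.84 and −1.96, and to 23.1 and 29.7 TPM in S983A, by −3.19 and −2.83. In WT its log2 changes with Ex-4, −0.55, −0.55 and −0.47 at 1, 8 and 16 h, stayed under the minimum, and in S983A they were called at −1.05, −0.85 and −0.82. Neurod2, a neuronal relative, had 52.0 TPM in WT CON and rose at 1 h by 1.23 with Ex-4 and 1.75 with FSK in WT and by 1.67 and 2.75 in S983A. Atoh7, Neurod4 and Bhlhe22 were also called higher in all 4 groups of 1 h, and Tal1 at 1 h of FSK. Between the genotypes at CON, 4 of the 11 were higher in S983A, among them Bhlha15 by 1.54, and 3 were lower, among them Neurod4 by −1.34. The shares of all tested genes called there were 8.29% higher and 11.1% lower.

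Of 12 Hairy and Orange repressors, which include Notch targets, 2 were not in the table used here, 4 were tested and 3 were called in a treatment, against 68.5% of all tested genes, with a median log2 change at 8 h of FSK in WT of −0.72 against −0.34 over all tested genes. Hes1 was called lower in WT at 8 and 16 h of both agents, by −0.60 and −0.61 with Ex-4 and −1.35 and −0.92 with FSK, and in no treatment of S983A. Whether its response differed between the genotypes was not tested here. Hes1 and Bhlhe40 were lower in S983A at CON, by −0.72 and −1.07, where 11.1% of all tested genes were called lower.

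Of 14 BMP ligands, 12 were in the table used here, and of these only Bmp2 and Bmp3 had means of 1 TPM or more. Both were called in a treatment, as were 68.5% of all tested genes. In S983A both were called higher at 16 h of Ex-4 and of FSK, against 4.73% and 12.2% of all tested genes. The medians of the pair were 1.15 and 1.47. The medians of all tested genes there were −0.06 and −0.10. At 8 h of FSK in S983A, 1 of the 2 was called lower, as were 34.5% of all tested genes. Bmp2 rose in 11 of the 12 treatments, at 1 h by 1.05 (SE 0.08, adjusted p 9.22e-11) with Ex-4 and 1.79 (SE 0.08, adjusted p 6.71e-16) with FSK in WT and by 0.88 and 1.17 in S983A. Its mean went from 4.25 TPM in WT CON to 17.1 TPM at 1 h and 19.95 TPM at 16 h of FSK. Bmp3 was lower in S983A at CON, by −1.29. The median log2 change of the pair at 1 h of Ex-4 in WT was 0.54, against −0.06 over all tested genes.

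Of 14 BMP antagonists, 7 were tested, 6 were called in a treatment, against 68.5% of all tested genes, and 4 were called higher in S983A at CON, against 8.29%, where their median log2 difference was 0.59 against −0.07 over all tested genes. Follistatin (Fst), a secreted protein that binds activins and several BMPs, had 0.373 TPM in WT CON, 13.7 TPM at 1 h of Ex-4 and 32.1 TPM at 1 h of FSK, log2 changes of 3.42 and 4.59. At 8 h of FSK it had 115 TPM in WT and 132 TPM in S983A, log2 changes of 6.40 and 6.01. Nbl1, of the DAN family of BMP antagonists, fell with FSK at 8 and 16 h in both genotypes, by −1.72 in WT and −2.55 in S983A at 16 h. Of 14 receptors of the family, 8 were tested and 6 were called in a treatment, a share near the 68.5% of all tested genes, none at 1 h of Ex-4, where their median log2 change in WT was also close to that of all genes, at −0.07. The activin receptor Acvr1b fell with FSK at 8 h by −1.31 in WT and −1.59 in S983A, and Acvr1c was higher in S983A at CON by 1.54.

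All 8 SMADs were tested and 6 were called in a treatment, again near the 68.5% of all tested genes, with a median log2 change of −0.08 at 1 h of Ex-4 in WT, against −0.06 over all tested genes. Smad9, a SMAD of the BMP branch, was called higher in all 4 groups of 1 h, by 0.69 (SE 0.11, adjusted p 4.94e-05) and 0.65 in WT and 0.87 and 0.67 in S983A, from 1.57 TPM in WT CON. Smad1 and Smad5, of the same branch, were not called at 1 h, nor was the inhibitory Smad6. The inhibitory Smad7 was called lower in 7 of the 12 treatments, among them all 4 of 16 h. At CON, Smad3 and Smad5 were lower in S983A by −0.87 and −0.60, and Smad7 was higher by 0.60. There, 11.1% of all tested genes were called lower and 8.29% higher. Of 7 regulators of SMADs, 5 were in the table used here and 4 were tested. Only the corepressor Tgif1 was called in a treatment, against 68.5% of all tested genes. Tgif1 was also higher in S983A at CON, by 1.48, against 8.29% of all tested genes called higher. The median log2 difference of the 4 at CON was −0.17, against −0.07 over all tested genes.

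Cell cycle inhibitors are known targets of E proteins, and 3 of 6 listed were tested. Cdkn1a (p21) and Cdkn1b (p27) were lower in S983A at CON, by −1.81 (SE 0.06, adjusted p 6.97e-19) and −1.35 (SE 0.04, adjusted p 3.08e-20), and Cdkn2c was higher by 0.72, a median of −1.35. At CON 19.4% of all tested genes were called, with a median of −0.07. Cdkn1a rose with FSK at 8 and 16 h in WT, by 1.37 and 1.62, and at 1, 8 and 16 h in S983A, by 2.06, 2.26 and 2.59. In WT 2 of the 3 were called higher at 8 and at 16 h of FSK, against 8.77% and 10.3% of all tested genes. The medians of the 3 were 1.37 and 0.91, against −0.34 and −0.20 over all tested genes. At 1 h of either agent, 1 of the 3 was called higher in each genotype, against 1.75% to 3.19% of all tested genes. In S983A 1 was called lower at 16 h of either agent, against 7.15% of all tested genes for Ex-4 and 21.1% for FSK.

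**Figure D5:**
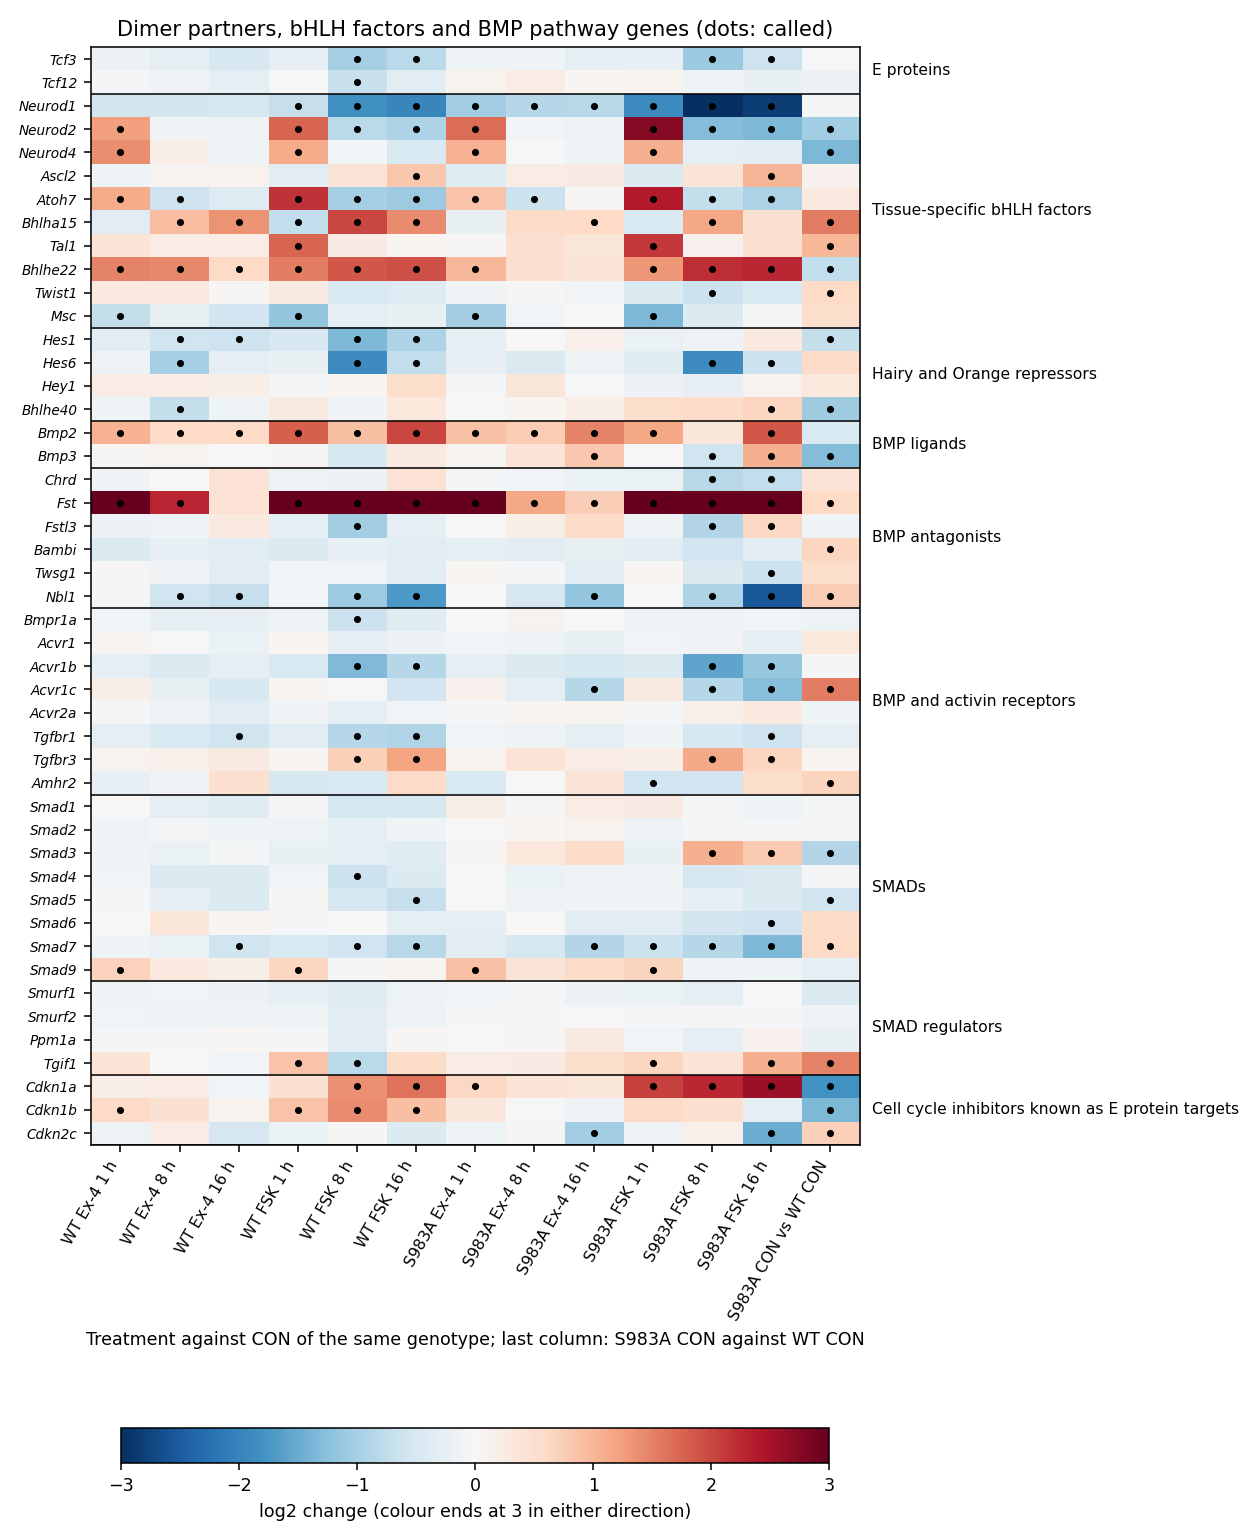
Log2 change of tested genes of the 9 lists, apart from 2 that are not reported here, by treatment against CON of the same genotype and, in the last column, S983A CON against WT CON, with red for higher, blue for lower and a dot where called. Fst is the darkest red row, up to 6.40 in WT at 8 h of FSK, Neurod1 is the darkest blue, down to −3.19 in S983A at 8 h of FSK, and Tcf3 and Tcf12 have no dot in an Ex-4 column.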

How the data were processed

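Total RNA of INS-1 cells was spiked with ERCC RNA before strand-specific library construction. The authors aligned reads to rn6 with STAR 2.5.3a and used HOMER 4.11.1 to turn exon reads of RefSeq transcripts into TPM. These deposited TPM values entered the tests without further scaling. The authors' deposited count table holds QoRTs counts of the 92 ERCC sequences alone, and their calls came from DESeq2 1.24.0 with ERCC size factors. Columns were matched to samples by genotype, treatment, hours and replicate in their names.

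Of several transcripts of a symbol, the one with the highest mean was kept. Genes averaging 1 TPM or more, 10275 in number, were fitted as log2(TPM + 1) with limma 3.58.1 (lmFit, contrasts.fit, trended eBayes; R 4.3.3). A single fit held the 28 libraries, with 14 group means and 14 residual degrees of freedom. Tests were two-sided, and a call needed a Benjamini-Hochberg adjusted p under 0.05 within the contrast and a fold change above 1.5. Each treatment was set against the CON group of its genotype, so comparisons within a genotype share controls. Fragments were recovered from TPM and exon length: 100% of the 124685 values below 1000 reads came out whole (tolerance 0.05 reads, 22.6% by chance), with 2 reads a fragment. They served edgeR 4.0.16 and DESeq2 1.42.0, which were alternatives. Other settings tried were 0.1 as the pseudocount, all 14852 genes above 0, a minimum mean of 5 TPM, median centring, scaling on the ERCC counts, only the libraries of the contrast, a replicate block, no fold minimum and leaving out each library. The fit was tested on simulated data. Python 3.11.15 was used for the tables.

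The members, gene lists and tests were chosen with earlier results of these data known. Named were the 4 members, Med14, list genes called in a treatment or between genotypes at CON (2 of them are counted but not reported here by name), and for each member the 5 genes with the highest r over 14 group means. A comparison of protein sequences was planned and is not reported here. Replicate numbers did not pair libraries: residuals of same-numbered libraries correlated over 0.1 in 17 of 91 pairs of groups (−0.280 to 0.283).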

Additional observations from a re-analysis of the deposited data

Results flagged for a closer look

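The response to treatment differed between S983A and WT, by a limma test of the difference itself, in 15 of the 24 cases of a member, an agent and a time. The values are log2 response in S983A minus log2 response in WT. With Ex-4 they were 0.83 for Id2 and 1.21 for Id4 at 1 h, 1.28 for Id2 and 0.62 for Id4 at 8 h, and 0.77 for Id1, 1.26 for Id2, 0.83 for Id3 and 1.27 for Id4 at 16 h. With FSK they were 0.92 for Id2, −0.71 for Id3 and 1.33 for Id4 at 1 h, 1.58 for Id2 and 1.59 for Id4 at 8 h, and 2.04 for Id2 and 1.2 for Id4 at 16 h. All but that of Id3 at 1 h of FSK were positive. Of all tested genes, 0.672% were called in this test at 1 h of Ex-4, 2.77% at 8 h and 7.24% at 16 h. With FSK the shares were 1.64% at 1 h and 13.9% at 8 h, and larger still at 16 h. With spike-in scaling, Id4 at 8 h of Ex-4 (0.49) and Id1 (0.35) and Id3 (0.41) at 16 h of Ex-4 were no longer called. Without 1 library, Id2 at 1 h of Ex-4 ranged over 0.61 to 1.06. Id3 at 1 h of FSK then ranged over −0.89 to −0.52. Id2 and Id4 had lower levels in S983A than in WT at CON, and the CON libraries of each genotype enter all 6 of its differences.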

How the results depend on the processing

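Values are log2 differences. A difference of responses between genotypes is written S983A minus WT, and a treatment named alone is against CON. No called value of a member changed sign under any alternative run, and leaving out 1 library changed no call of a treatment against CON. The replicate block changed no call of a member in any of the 33 contrasts. Only 2 libraries stand in each group, and p-values measure the spread between such pairs. Id2, at the lowest TPM of the 4, had the widest errors.

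With scaling on the ERCC RNA, the calls lost were Id4 S983A minus WT at 8 h of Ex-4 (0.49), Id1 S983A minus WT at 16 h of Ex-4 (0.35), Id3 S983A minus WT at 16 h of Ex-4 (0.41), Id1 Ex-4 minus FSK at 8 h in WT (−0.47), Id3 Ex-4 minus FSK at 8 h in WT (−0.57), Id4 Ex-4 minus FSK at 8 h in WT (−0.53), Id1 Ex-4 minus FSK at 1 h in S983A (−0.48), Id4 Ex-4 minus FSK at 1 h in S983A (−0.50), Id1 16 minus 8 h of FSK in WT (−0.36), Id3 16 minus 8 h of FSK in WT (−0.57) and Id3 16 minus 8 h of FSK in S983A (−0.33). Calls gained were Id4 16 h of Ex-4 in WT (0.70), Id3 16 h of FSK in S983A (0.66), Id4 Ex-4 minus FSK at 1 h in WT (−0.63), Id2 Ex-4 minus FSK at 16 h in S983A (−0.77), Id3 Ex-4 minus FSK at 16 h in S983A (−0.86), Id1 16 minus 8 h of Ex-4 in S983A (−0.62) and Id2 16 minus 8 h of FSK in S983A (0.60). Uncalled values of the other sign were Id3 16 h of FSK in WT (0.22), Id2 8 h of FSK in S983A (−0.058), Id3 Ex-4 minus FSK at 1 h in S983A (0.0052), Id2 Ex-4 minus FSK at 8 h in S983A (0.033), Id2 16 minus 8 h of Ex-4 in WT (0.070), Id2 16 minus 8 h of FSK in WT (0.15) and Id1 16 minus 8 h of FSK in S983A (0.20).

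In edgeR with ERCC library sizes, the calls lost were Id4 S983A minus WT at 8 h of Ex-4 (0.53), Id1 S983A minus WT at 16 h of Ex-4 (0.38), Id3 S983A minus WT at 16 h of Ex-4 (0.44), Id1 Ex-4 minus FSK at 8 h in WT (−0.49), Id4 Ex-4 minus FSK at 8 h in WT (−0.53), Id1 Ex-4 minus FSK at 1 h in S983A (−0.48), Id4 Ex-4 minus FSK at 1 h in S983A (−0.51), Id1 16 minus 8 h of FSK in WT (−0.38) and Id3 16 minus 8 h of FSK in S983A (−0.34), those gained were Id4 16 h of Ex-4 in WT (0.72), Id2 16 h of FSK in S983A (0.61), Id3 16 h of FSK in S983A (0.67), Id4 Ex-4 minus FSK at 1 h in WT (−0.63), Id2 Ex-4 minus FSK at 16 h in S983A (−0.92), Id3 Ex-4 minus FSK at 16 h in S983A (−0.88), Id1 16 minus 8 h of Ex-4 in S983A (−0.65) and Id2 16 minus 8 h of FSK in S983A (0.73), and uncalled values of the other sign were Id3 16 h of FSK in WT (0.23), Id2 8 h of FSK in S983A (−0.12), Id3 Ex-4 minus FSK at 1 h in S983A (0.0011), Id2 Ex-4 minus FSK at 8 h in S983A (0.081), Id2 16 minus 8 h of Ex-4 in WT (0.077), Id2 16 minus 8 h of FSK in WT (0.18) and Id1 16 minus 8 h of FSK in S983A (0.21). DESeq2 with ERCC size factors lost and gained the same calls, with equal values to 2 decimals except Id3 Ex-4 minus FSK at 1 h in S983A (0.00094), Id2 Ex-4 minus FSK at 8 h in S983A (0.078), Id2 16 minus 8 h of Ex-4 in WT (0.078).

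Median centring lost Id4 S983A minus WT at 8 h of Ex-4 (0.53) and Id4 8 minus 1 h of FSK in WT (−0.47), gained Id1 8 h of FSK in S983A (0.73), Id4 Ex-4 minus FSK at 1 h in WT (−0.63), Id1 Ex-4 minus FSK at 8 h in S983A (−0.61) and Id3 Ex-4 minus FSK at 16 h in S983A (−0.61), and changed the sign of the uncalled Id3 16 h of FSK in WT (0.079) and Id2 Ex-4 minus FSK at 8 h in WT (−0.030). TMM in edgeR lost Id4 8 minus 1 h of FSK in WT (−0.53), gained Id1 8 h of FSK in S983A (0.67), Id4 Ex-4 minus FSK at 1 h in WT (−0.63) and Id2 Ex-4 minus FSK at 16 h in S983A (−0.60), and changed the sign of the uncalled Id3 16 h of FSK in WT (0.014). DESeq2 with its own size factors lost Id4 8 minus 1 h of FSK in WT (−0.51), gained Id1 8 h of FSK in S983A (0.71), Id4 Ex-4 minus FSK at 1 h in WT (−0.62), Id1 Ex-4 minus FSK at 8 h in S983A (−0.60), Id2 Ex-4 minus FSK at 16 h in S983A (−0.63) and Id3 Ex-4 minus FSK at 16 h in S983A (−0.59), and changed the sign of the uncalled Id3 16 h of FSK in WT (0.046).

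Without the filter Id2 S983A minus WT at 1 h of Ex-4 (0.83) was no longer called (limma adjusted p 0.143). A pseudocount of 0.1 gained Id3 S983A minus WT at 16 h of FSK (0.60). With no fold minimum, the same values counted as calls for Id4 16 h of Ex-4 in WT (0.38), Id3 8 h of Ex-4 in S983A (0.28), Id1 16 h of Ex-4 in S983A (−0.41), Id1 8 h of FSK in S983A (0.39), Id1 16 h of FSK in S983A (0.26), Id2 16 h of FSK in S983A (0.32), Id3 16 h of FSK in S983A (0.42), Id1 S983A minus WT at 8 h of FSK (−0.36), Id3 S983A minus WT at 8 h of FSK (0.31), Id3 S983A minus WT at 16 h of FSK (0.58), Id1 Ex-4 minus FSK at 1 h in WT (−0.49), Id3 Ex-4 minus FSK at 1 h in WT (−0.43), Id4 Ex-4 minus FSK at 1 h in WT (−0.57), Id1 Ex-4 minus FSK at 8 h in S983A (−0.30), Id2 Ex-4 minus FSK at 16 h in S983A (−0.47), Id3 Ex-4 minus FSK at 16 h in S983A (−0.51), Id3 8 minus 1 h of Ex-4 in S983A (−0.47), Id1 16 minus 8 h of Ex-4 in S983A (−0.50), Id3 16 minus 8 h of Ex-4 in S983A (−0.38) and Id4 8 minus 1 h of FSK in S983A (−0.47).

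Counts of list genes moved as follows. With median centring, TMM in edgeR or DESeq2's own size factors, 1 E protein was called in a treatment, as without replicate 1 of WT CON (1 to 2 over the libraries left out). With a mean of at least 5 TPM, which tests fewer genes, 6 tissue-specific bHLH factors, 3 BMP antagonists and 3 SMADs were called in a treatment, and 1 Hairy and Orange repressor and 1 receptor between the genotypes at CON. Median centring left 3 SMADs. Between the genotypes at CON, 4 Hairy and Orange repressors were called in edgeR with either scaling and with no fold minimum, which also gave 2 BMP ligands, 4 receptors, 5 SMADs and 3 SMAD regulators, and 4 SMAD regulators in a treatment.

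Leaving out 1 library changed the side of the threshold of 12 differences. Id2 S983A minus WT at 1 h of Ex-4 ranged over 0.61 to 1.06 and was lost without WT CON replicate 1 (0.87), WT CON replicate 2 (0.80), WT 1 h Ex-4 replicate 1 (0.76), WT 1 h Ex-4 replicate 2 (0.90), Med14 S983A CON replicate 1 (0.61), Med14 S983A 1 h Ex-4 replicate 2 (0.64). Id4 S983A minus WT at 8 h of Ex-4 ranged over 0.53 to 0.71 and was lost without WT CON replicate 2 (0.53). Id3 S983A minus WT at 1 h of FSK ranged over −0.89 to −0.52 and was lost without Med14 S983A 1 h FSK replicate 2 (−0.52). Id3 S983A minus WT at 16 h of FSK ranged over 0.53 to 0.62 and was gained without WT CON replicate 1 (0.59), WT 16 h FSK replicate 2 (0.61), Med14 S983A CON replicate 1 (0.62), Med14 S983A 16 h FSK replicate 1 (0.59). Id1 Ex-4 minus FSK at 1 h in WT ranged over −0.59 to −0.38 and was gained without WT 1 h Ex-4 replicate 2 (−0.59), WT 1 h FSK replicate 2 (−0.59). Id4 Ex-4 minus FSK at 1 h in WT ranged over −0.60 to −0.54 and was gained without WT 1 h Ex-4 replicate 2 (−0.60), WT 1 h FSK replicate 2 (−0.60). Id1 Ex-4 minus FSK at 8 h in WT ranged over −0.75 to −0.44 and was lost without WT 8 h FSK replicate 1 (−0.44). Id1 Ex-4 minus FSK at 1 h in S983A ranged over −0.79 to −0.56 and was lost without Med14 S983A 1 h FSK replicate 1 (−0.56). Id3 Ex-4 minus FSK at 16 h in S983A ranged over −0.64 to −0.39 and was gained without Med14 S983A 16 h Ex-4 replicate 1 (−0.64). Id4 Ex-4 minus FSK at 16 h in S983A ranged over −0.74 to −0.55 and was lost without Med14 S983A 16 h Ex-4 replicate 2 (−0.55). Id1 16 minus 8 h of FSK in WT ranged over −0.88 to −0.58 and was lost without WT 8 h FSK replicate 1 (−0.58). Id3 16 minus 8 h of FSK in S983A ranged over −0.75 to −0.58 and was lost without Med14 S983A 8 h FSK replicate 1 (−0.58).

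Uncalled values that passed 0 when 1 library was left out were Id1 16 h of FSK in WT (−0.046 to 0.075), Id1 8 h of Ex-4 in S983A (−0.052 to 0.23), Id2 8 h of Ex-4 in S983A (−0.26 to 0.19), Id2 16 h of Ex-4 in S983A (−0.37 to 0.080), Id3 16 h of Ex-4 in S983A (−0.23 to 0.030), Id2 8 h of FSK in S983A (−0.21 to 0.24), Id1 S983A minus WT at CON (−0.036 to 0.25), Id1 S983A minus WT at 8 h of Ex-4 (−0.20 to 0.079), Id2 Ex-4 minus FSK at 8 h in S983A (−0.26 to 0.14), Id2 16 minus 8 h of Ex-4 in WT (−0.23 to 0.056), Id2 16 minus 8 h of FSK in WT (−0.32 to 0.0019), Id2 16 minus 8 h of Ex-4 in S983A (−0.31 to 0.092), Id3 8 minus 1 h of FSK in S983A (−0.044 to 0.32).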
